A study of Mus musculus with 22 samples.

Results

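The Hox cluster genes were examined as regions of open chromatin in mouse male germ cells. They are the 39 protein-coding genes that RefSeq lists in the Hoxa, Hoxb, Hoxc and Hoxd clusters, named by 1 of these prefixes and a number. Every ATAC-seq peak that overlapped such a gene or the 2 kb on either side of it was taken once, which gave 66 of the 96049 deposited peaks. Of these, 13 lay at Hoxa, 20 at Hoxb, 16 at Hoxc and 17 at Hoxd genes. The choice used names and positions only, and no measured value. At least 1 peak was present at 36 of the 39 genes, and none at Hoxa2, Hoxb5 or Hoxd9.

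ATAC-seq reads DNA that Tn5 transposase can reach, and the study asked how open chromatin changes when TERT, the catalytic subunit of telomerase, is deleted acutely. All mice were C57BL/6 of 8 to 12 weeks, and 17 libraries came from spermatogonia sorted on day 7 after tamoxifen, which activates the Cre recombinase fused to the oestrogen receptor. The sort used MCAM, an adhesion molecule, and KIT, the receptor of differentiating spermatogonia, and split the labels' undifferentiated cells, which lack KIT, by high or medium MCAM from differentiating cells with KIT and medium MCAM. Titles separate TERT-heterozygous libraries (3 MCAM-high, 2 MCAM-medium and 3 KIT-positive) from TERT-deleted ones (3 of each), although the genotype entry reads TertCreER/+:Rosalsl-Tdtomato/+ for both, a Cre driven from the Tert locus with a Cre-dependent tdTomato reporter. A further 5 heterozygous libraries of genotype TertTdtomato/+ hold later stages (labelled spermatocyte or round spermatid) with no marker or time entry, called later germ cells here. For 4 of these 5 the title and the library name give opposite cell types, so the 5 were kept as 1 group, and all 5 names carry 1 and the same replicate tag. Stage, reporter genotype and sorting therefore cannot be told apart in comparisons with the later group.

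Hox genes encode homeodomain transcription factors that give cells of the embryo their position along the head-to-tail axis. Within each cluster the genes lie in the order in which they act, from anterior genes (numbers 1 to 3 here) through central genes (4 to 8) to posterior genes (9 to 13). Polycomb complexes keep the clusters silent where they are not used and Trithorax-type complexes keep them active. In the male germ line, Hox promoters are known to carry both activating and repressive histone marks.

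The sequences printed below are the 250 bases before 5 annotated starts, from RefSeq on GRCm38.p6. Each is on the + strand with every CpG in capitals. They lie at or near called peaks and are not the sequences of the peaks themselves. Hoxb4 (chr11:96318017-96318266), Hoxc4 (chr15:103034145-103034394), Hoxd12 (chr2:74674763-74675012) and Hoxd10 (chr2:74691641-74691890) are shown because a peak touching the window around that start was lower in later germ cells. Hoxd8 (chr2:74704365-74704614) is shown because both tested peaks of that gene, which begin after its start, were higher there. CpG numbers were 14, 8, 10, 20 and 6 in the order printed.
Hoxb4: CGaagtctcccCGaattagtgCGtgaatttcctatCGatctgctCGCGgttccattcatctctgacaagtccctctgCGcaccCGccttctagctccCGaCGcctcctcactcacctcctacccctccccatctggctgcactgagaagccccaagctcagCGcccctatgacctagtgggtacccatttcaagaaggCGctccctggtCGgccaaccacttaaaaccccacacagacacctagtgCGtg
Hoxc4: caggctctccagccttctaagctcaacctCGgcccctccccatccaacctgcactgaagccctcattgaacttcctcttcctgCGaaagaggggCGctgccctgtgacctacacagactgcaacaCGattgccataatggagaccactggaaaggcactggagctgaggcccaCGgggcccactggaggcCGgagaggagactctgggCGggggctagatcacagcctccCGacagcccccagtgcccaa
Hoxd12: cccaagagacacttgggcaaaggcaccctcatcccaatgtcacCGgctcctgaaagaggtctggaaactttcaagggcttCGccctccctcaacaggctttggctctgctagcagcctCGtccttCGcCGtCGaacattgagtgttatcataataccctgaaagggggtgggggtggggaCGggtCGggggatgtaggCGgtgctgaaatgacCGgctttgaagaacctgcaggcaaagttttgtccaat
Hoxd10: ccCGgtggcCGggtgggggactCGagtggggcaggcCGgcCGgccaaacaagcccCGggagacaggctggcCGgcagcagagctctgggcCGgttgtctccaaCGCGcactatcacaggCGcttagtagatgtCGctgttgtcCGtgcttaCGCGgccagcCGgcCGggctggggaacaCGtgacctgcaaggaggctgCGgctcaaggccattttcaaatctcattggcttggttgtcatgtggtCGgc
Hoxd8: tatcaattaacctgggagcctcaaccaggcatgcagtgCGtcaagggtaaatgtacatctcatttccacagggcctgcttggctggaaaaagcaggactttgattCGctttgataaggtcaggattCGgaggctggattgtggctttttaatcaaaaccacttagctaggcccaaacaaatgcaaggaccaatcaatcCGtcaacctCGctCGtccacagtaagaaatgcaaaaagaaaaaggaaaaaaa

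The promoter table held 24 start windows of 300 bases (250 before to 50 after a start) for 22 of the 39 Hox genes and none for the other 17, and 10 of the windows (41.7%) were overlapped by a Hox peak, against 52.2% of 32851 windows of all genes. The overlapped windows were 1 of 10 at Hoxa, 2 of 3 at Hoxb, 1 of 1 at Hoxc and 6 of 10 at Hoxd. Hox windows had a median GC content of 57.7% and a median of 14.5 CpG, against 52.7% and 7 for all windows. Motifs were searched on both strands as the letters given. CCAAT was found in 15 of 24 Hox windows (62.5%) against 37.4% of all windows, and the E-box CACGTG in 5 (20.8%) against 7.15%. GGGCGG was in 10 (41.7%) against 35.7%, TATAAA in 4 (16.7%) against 13.6%, TGATTNAT (a HOX-PBX type element) in 2 (8.33%) against 3.22%, and TGACAG (a MEIS type element) in 2 (8.33%) against 19.2%. These matches describe the letters of the windows only.

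The clusters also hold microRNA genes, whose mature sequences are given with the seed (bases 2 to 8) in capitals because they belong to the clusters described here and share seeds across them. They form 2 seed families and 1 single gene. miR-10a-5p, next to Hoxb4, and miR-10b-5p, next to Hoxd4, share a seed, as do miR-196a-5p (encoded at both Hoxb and Hoxc) and miR-196b-5p (Hoxa). miR-615-3p comes from Mir615, which lies inside a Hoxc5 peak.
miR-10a-5p: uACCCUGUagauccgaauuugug
miR-10b-5p: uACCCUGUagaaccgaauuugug
miR-196a-5p: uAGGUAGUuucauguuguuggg
miR-196b-5p: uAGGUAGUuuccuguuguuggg
miR-615-3p: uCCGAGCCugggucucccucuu

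Libraries held 922085 to 3358377 counts in peaks, of which 423 to 1409 fell in Hox peaks. A count of 0 allows up to 3 counts, or 0.893 to 3.25 CPM, and this covers counting error only. CPM is a count relative to the library's total in peaks, scaled by TMM over the 22 libraries in all values below. The 1 peak at Tert (chr13:73626569-73627516) lay at 13.5 to 30.0 CPM in heterozygous and 12.5 to 21.1 CPM in deleted spermatogonia; no label places the deletion relative to this peak, and it does not check the genotype. Of the 2 sorting markers, the Kit gene-end peak was at 30.9 ± 6.15 CPM (SD, n = 3) in MCAM-high and 60.7 ± 4.17 CPM (n = 3) in KIT-positive heterozygous cells. The Mcam gene-end peak was at 24.6 ± 5.31 CPM in MCAM-high and 28.02 ± 5.77 CPM (n = 2) in MCAM-medium heterozygous cells, within the spread of the libraries. Of 10 round spermatid markers with a gene-end peak, 9 were higher and 1 lower in later germ cells than in KIT-positive cells (edgeR quasi-likelihood test, adjusted p under 0.05). Among all gene-end peaks 24.0% were higher and 28.4% lower. Among the library counts above 0, the share of even values ran from 48.8% to 73.9%, with 49.3 to 49.9% in the later group and 50.7 to 73.9% in heterozygous KIT-positive cells, and its part in the results was not tested.

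Hox peaks were mostly weak to moderate sites within gene bodies. Their median level in heterozygous KIT-positive cells was 7.08 CPM, against 4.07 CPM over all 96049 peaks and 18.3 CPM over peaks within 1 kb of a gene end. Only 1 of the 66 was above the 90th percentile of all peaks there (25.1 CPM). In later germ cells the Hox median was 3.65 CPM, while the median of all peaks was 5.18 CPM. Median Hox peak width was 403.5 bp, against 417 bp over all peaks, so the levels were read at similar widths. Peaks lay 1.23, 1.15, 1.38 and 1.75 per 10 kb across the Hoxa (chr6), Hoxb (chr11), Hoxc (chr15) and Hoxd (chr2) clusters, which span 106, 174, 116 and 96.9 kb. A Hox gene had a median of 1 peak and a protein-coding gene a median of 2, although a larger share of Hox genes had any peak (92.3% against 81.2%).

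The strongest peaks of Hoxb, Hoxc and Hoxd, by mean CPM over all libraries, lay at or beside an end gene of the cluster. At Hoxc it overlapped the outer end of Hoxc13, a posterior gene (chr15:102920620-102921853). Among heterozygous libraries, MCAM-high ones held 37.0, 31.1 and 32.1 CPM, MCAM-medium ones 39.4 and 27.7 CPM, KIT-positive ones 51.7, 47.7 and 38.5 CPM and later ones 3.82, 5.57, 7.39, 5.19 and 4.93 CPM. Every spermatogonial library thus stood well above every later one. At Hoxd the strongest peak overlapped the Hoxd1 start and the noncoding gene Haglr (chr2:74762634-74763640), with group means of 32.1, 23.3, 22.5 and 14.9 CPM in the same order. At Hoxb it lay in Hoxb2 and the antisense gene Hoxb3os (chr11:96352794-96353566), with 13.5, 12.2, 14.03 and 2.79 CPM. ATAC-seq has no strand, so overlapping genes cannot be told apart.

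Averaged over the peaks of a cluster, Hoxb and Hoxc were lower in later germ cells than in every spermatogonial library, while Hoxa and Hoxd overlapped between stages. Hoxc held 12.8 ± 1.25 CPM per peak (SD, n = 3) in heterozygous KIT-positive cells and 5.41 ± 1.14 (n = 5) in later germ cells, or 42.3% of the former. Its spermatogonial libraries ran from 8.60 to 14.2 CPM and its later libraries from 3.97 to 6.68 CPM. Hoxb held 5.93 ± 0.97 and 3.05 ± 0.21 CPM per peak (51.4%), and its later libraries ran from 2.79 to 3.31 CPM, all below the lowest spermatogonial library at 4.75 CPM. Hoxa held 9.70 ± 1.02 and 7.15 ± 1.85 CPM (73.7%), and Hoxd 8.09 ± 0.37 and 8.44 ± 1.32 CPM (104%), with overlapping libraries in both. These averages carry no test, because a cluster mean follows its strongest peaks. Each library is a bulk of sorted cells, so fewer cells with an open site and less opening per cell cannot be told apart.

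**Figure D1:**
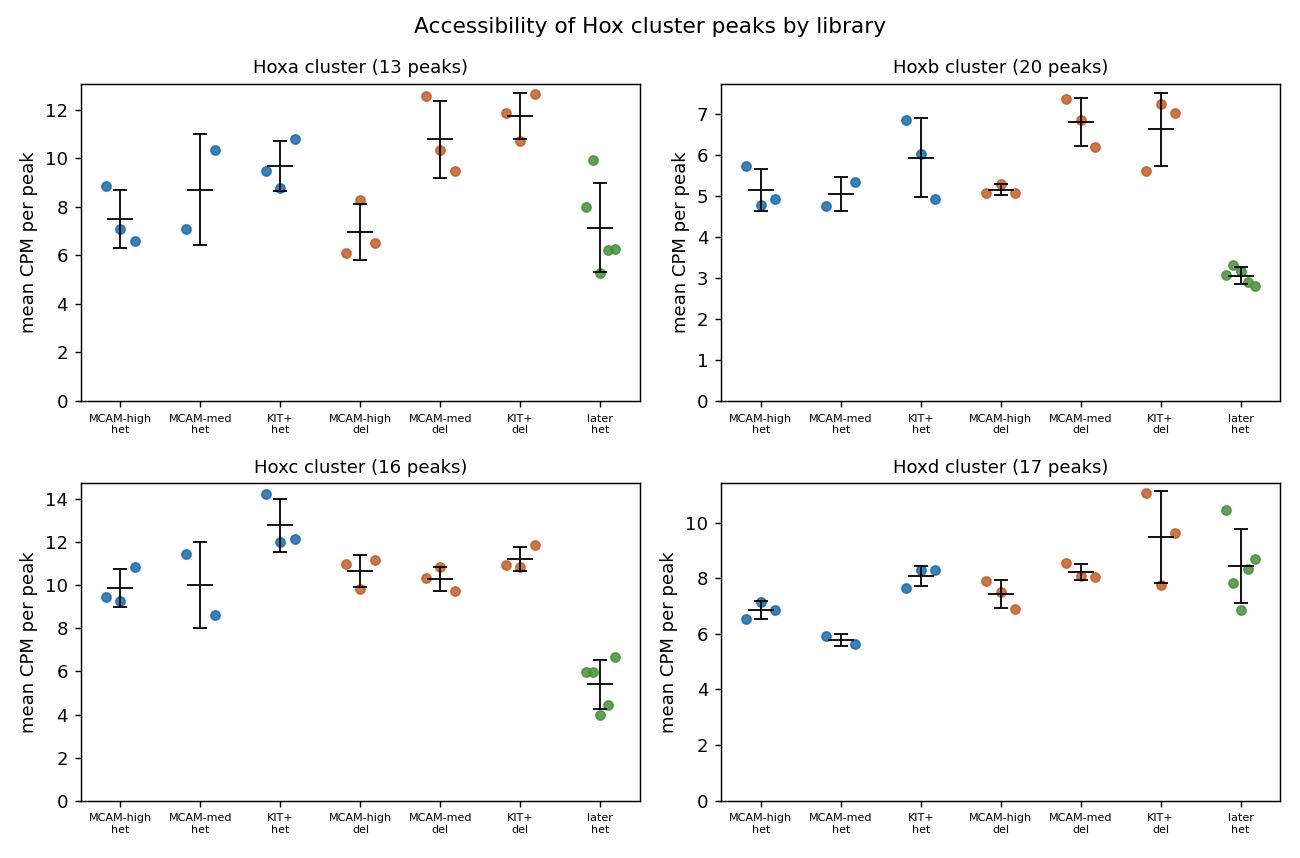
Mean CPM per peak (TMM-scaled) for the 4 Hox clusters, 1 point per library, with the mean and SD of each group; blue is heterozygous (het) and orange TERT-deleted (del) spermatogonia, green later germ cells. The 5 later libraries sit below all spermatogonial libraries at Hoxb (2.79 to 3.31 CPM) and Hoxc (3.97 to 6.68 CPM), and overlap them at Hoxa and Hoxd. At Hoxa the lowest later library (5.28 CPM) lies below the lowest spermatogonial one (6.11 CPM).

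The step from undifferentiated to KIT-positive spermatogonia was examined first. Of the 66 Hox peaks, 56 passed the filter on low counts among the 17 spermatogonial libraries and were tested. In heterozygous cells 1 of the 56 was called between KIT-positive and MCAM-high cells, and it was higher in KIT-positive cells, while 15.8% of all 57289 tested peaks were called (9.64% higher and 6.11% lower). That peak lies in Hoxd3, an anterior gene, and in its antisense gene Hoxd3os1 (chr2:74715583-74716202). The MCAM-high libraries held 1.05, 1.73 and 3.68 CPM, the MCAM-medium ones 2.29 and 3.26 CPM, and the KIT-positive ones 8.99, 5.19 and 11.9 CPM. The KIT-positive libraries lay above all 5 undifferentiated heterozygous ones, and the log2 fold change over MCAM-high was 2.08 ± 0.67 (SE; edgeR quasi-likelihood test, Benjamini-Hochberg adjusted p = 0.0263). The call ended without MCAM-high library 1 or 2 or KIT-positive library 1 or 3 (adjusted p = 0.0502 to 0.143), with the direction kept.

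The median log2 fold change of the tested Hox peaks from MCAM-high to KIT-positive heterozygous cells was 0.31, that of all tested peaks -0.05, that of gene-end peaks 0.19 and that of peaks at homeobox genes outside the clusters 0.27. Without TMM, scaling to total counts moved the Hox and all-peak medians to 0.13 and -0.22, and the share of higher peaks among all calls from 61.2% to 44.8%. By cluster the Hox medians were 0.39 (Hoxa), 0.24 (Hoxb), 0.46 (Hoxc) and 0.19 (Hoxd). An unadjusted p under 0.05 was found at 7 Hox peaks (12.5%), against 29.2% of all tested peaks.

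Between the 2 undifferentiated populations no Hox peak was called, and none of all tested peaks was either (0%). No Hox peak had an unadjusted p under 0.05 in that comparison by edgeR or by DESeq2. The smallest p fell to a peak in Hoxb9, a posterior gene (chr11:96271571-96271949), at which the MCAM-high libraries held 7.69, 5.18 and 4.204 CPM and the MCAM-medium ones 2.29 and 2.18 CPM. The 2 groups did not overlap, and the log2 fold change was -1.33 ± 0.78 with an adjusted p of 1 (edgeR). From MCAM-medium to KIT-positive cells 1 Hox peak was called, in Hoxb8, a central gene (chr11:96279523-96279790), against 9.32% of all tested peaks (5.7% higher and 3.62% lower). It held 29 counts in the 3 KIT-positive and 2 counts in the 2 MCAM-medium libraries, a ratio of 14.6 with an exact 95% counting interval of 3.70 to 126 (edgeR adjusted p = 0.0337). The interval covers counting error only and leaves out the spread between libraries. KIT-positive libraries held 6.74, 13.5 and 4.15 CPM, above all 5 undifferentiated heterozygous ones. The call ended without either MCAM-medium library or without KIT-positive library 2 (adjusted p = 0.0914 to 0.212). It also ended when only these groups were fitted (adjusted p = 0.0633) and with the replicate number as a block (adjusted p = 0.0781). At this peak deleted MCAM-high libraries held 5.07, 7.71 and 1.55 CPM and deleted MCAM-medium ones 3.10, 4.85 and 2.98 CPM. Deleted KIT-positive libraries held 0, 3.12 and 0.775 CPM, so the rise was not seen in deleted cells.

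TERT-deleted spermatogonia gave 1 higher Hox call among 56 tested peaks for the same step (edgeR quasi-likelihood test), while 13.7% of all tested peaks were called (9.39% higher and 4.35% lower). It was a different peak from the Hoxd3 peak called in heterozygous cells. Over the 56 peaks the log2 fold changes of the step had a Pearson correlation of -0.20 between genotypes, and 37 had the same sign. The count of higher calls was 0 without deleted MCAM-high library 1 or 3 or KIT-positive library 1 or 3, and 0 when counts were scaled to their totals. The median log2 fold change of tested Hox peaks was 0.21 in deleted cells, against -0.05 for all peaks, and -0.03 against -0.28 without TMM, where the sign of the Hox median flips.

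Whether the step differs by genotype was tested directly. No Hox peak and no peak at all (0%) was called for a difference between genotypes in the KIT-positive minus MCAM-high change (edgeR). An unadjusted p under 0.05 was found at 4 Hox peaks (7.14%) and at 4.98% of all peaks, and DESeq2 called no Hox peak. This does not show that the step is the same in both genotypes. The smallest p belonged to the peak in Hoxc5, a central gene, that holds Mir615 (chr15:103014822-103015261). It held 1.75, 6.04 and 3.68 CPM in heterozygous MCAM-high and 8.99, 4.15 and 8.89 CPM in heterozygous KIT-positive libraries, and 9.29, 10.3 and 12.4 CPM and 2.71, 3.12 and 5.43 CPM in the deleted counterparts. Deleted MCAM-high libraries were above heterozygous ones without overlap, and the difference of differences was -2.50 ± 0.84 on the log2 scale (adjusted p = 0.908).

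Deletion of TERT changed no Hox peak past the threshold in any population. Over all tested peaks the share called was 0.0489% for MCAM-high cells, 0.00873% for MCAM-medium cells (all higher in both), 0.00349% for KIT-positive cells (0.00175% higher and 0.00175% lower) and 0.124% for the mean of the 3 populations (0.103% higher and 0.0209% lower), so a count of 0 among 56 peaks is close to the background. Unadjusted p-values under 0.05 numbered 3, 4, 1 and 2 in these comparisons by edgeR, or 5.36%, 7.14%, 1.79% and 3.57% of the tested Hox peaks, against 5.86%, 4.25%, 3.59% and 5.53% of all peaks. DESeq2 called no Hox peak in any of them. The median log2 fold change of tested Hox peaks was 0.05 for MCAM-high, 0.33 for MCAM-medium and 0.11 for KIT-positive cells, where all tested peaks had -0.04, 0.02 and 0.00 and peaks at homeobox genes outside the clusters 0.04, 0.29 and -0.04. In MCAM-medium cells the mean over the 66 peaks was 7.14 and 7.19 CPM in heterozygous and 9.41, 8.83 and 8.17 CPM in deleted libraries. The deleted libraries lay above both heterozygous ones, with only 2 of the latter. By cluster the MCAM-medium medians were 0.29 at Hoxa, 0.72 at Hoxb, 0.05 at Hoxc and 0.43 at Hoxd.

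The peaks with the smallest p after deletion were 1 in each population, and none passed adjustment. In MCAM-high cells it was the Hoxc5 peak given above, at 1.48 ± 0.57 on the log2 scale (edgeR adjusted p = 0.634). In MCAM-medium cells it was a peak beside Hoxa3, an anterior gene, within the noncoding gene Hoxaas2 (chr6:52168663-52168940), with 1.83 and 8.16 CPM in heterozygous and 8.07, 12.5 and 23.9 CPM in deleted libraries, which overlapped (1.56 ± 0.66, adjusted p = 1). In KIT-positive cells it was the Hoxb8 peak given above, with 6.74, 13.5 and 4.15 CPM in heterozygous and 0, 3.12 and 0.775 CPM in deleted libraries (-2.50 ± 0.96, adjusted p = 1). For the mean of the 3 populations it was the peak over the start of Hoxd13, a posterior gene of limb and genital patterning (chr2:74667946-74668947), at 0.76 ± 0.26 (adjusted p = 0.526).

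**Figure D2:**
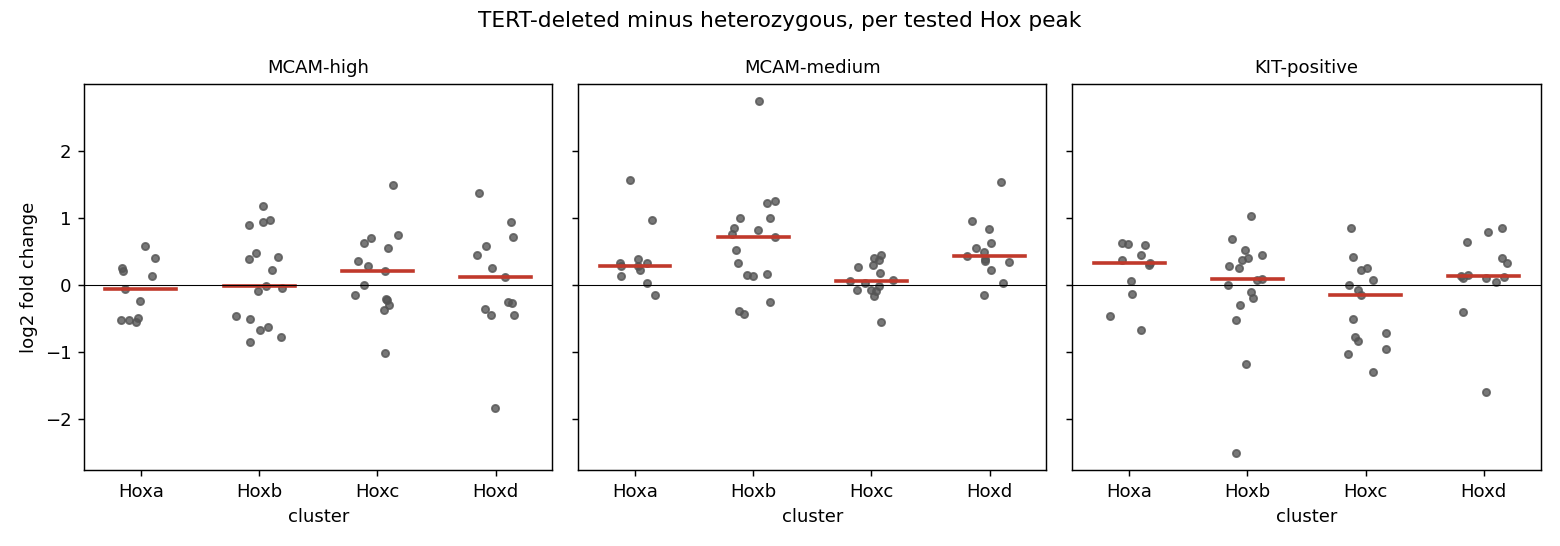
Log2 fold change, TERT-deleted minus heterozygous, of each tested Hox peak by cluster in the 3 sorted populations; red bars are medians. Points scatter on both sides of 0 in every cluster, with medians from -0.15 (Hoxc, KIT-positive) to 0.72 (Hoxb, MCAM-medium), and no point passed the adjusted threshold.

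Later germ cells had lower levels than spermatogonia at many Hox peaks and higher levels at few. Against heterozygous KIT-positive cells, 55 of the 66 peaks were tested among the 13 heterozygous libraries, and 17 were lower and 3 higher in later germ cells. Over all 73134 tested peaks 52% were called, 22.8% lower and 29.2% higher. Hox peaks were thus called lower in 30.9% and higher in 5.45% of cases, and peaks at all gene ends in 28.4% and 24.0%. The median log2 fold change was -0.70 for Hox peaks and 0.12 for all peaks. With the size factors of DESeq2 (RLE) in place of TMM both medians moved up by a like amount, to -0.50 and 0.31. Fitted on these 2 groups alone, where 36 Hox peaks were tested, 11 (30.6%) were lower. Gene-end peaks had a median of -0.12 and peaks at homeobox genes outside the clusters -1.07.

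The calls were spread unevenly over the clusters. Lower peaks were 7 of 15 tested at Hoxc, 7 of 16 at Hoxb, 2 of 14 at Hoxd and 1 of 10 at Hoxa, and all 3 higher peaks were at Hoxd. By class, 8 of 19 posterior peaks were lower and none higher, against 4 lower and 1 higher of 22 anterior peaks and 5 lower and 2 higher of 14 central peaks. The 4 lower anterior peaks include the peak at the start of Hoxb4, a central gene, because that peak was assigned to Hoxb3. Differences between clusters or classes were not tested.

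At Hoxc the lower peaks lay at the posterior end and at Hoxc4. All 3 peaks of Hoxc13 were lower, both peaks of Hoxc11, 1 of the 2 assigned to Hoxc9, and the peak over the Hoxc4 start whose sequence is printed above. The outer Hoxc13 peak, with values given above, fell by 3.15 ± 0.31 on the log2 scale (edgeR adjusted p = 1.25e-12). A further Hoxc13 peak (chr15:102927040-102927530) held 16.5, 10.4 and 4.74 CPM in KIT-positive and 1.39, 0, 0.739, 0 and 2.19 CPM in later libraries, which did not overlap (-3.40 ± 0.71, adjusted p = 6.19e-05). In Hoxc11, a posterior gene, a peak (chr15:102954507-102954772) held 5.99, 7.27 and 8.89 CPM and then 1.04, 0.619, 1.48, 0.649 and 0.548 CPM, again without overlap (-3.03 ± 0.71, adjusted p = 0.000324). Beside Hoxc9, posterior too, a peak (chr15:102975696-102976148) held 11.2, 17.6 and 14.8 CPM and then 3.82, 1.24, 0, 2.60 and 1.64 CPM (-2.80 ± 0.54, adjusted p = 1.67e-05). Not all posterior sites went with them. The peak in Hoxc10 (chr15:102966403-102967390), which is named here after its values were seen, held 19.98 CPM on average in KIT-positive and 18.6 CPM in later cells (-0.11 ± 0.32, adjusted p = 0.79).

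At Hoxb the lower peaks ran from Hoxb8 to Hoxb2. In Hoxb8 a peak (chr11:96283141-96283346) held 7.49, 4.15 and 13.6 CPM in KIT-positive and 1.74, 0, 1.48, 1.30 and 1.10 CPM in later libraries, without overlap (-2.85 ± 0.69, edgeR adjusted p = 0.000501). This peak passed the filter on low counts through KIT-positive libraries alone, the group in which it was high. Its entry to the test therefore leaned on that group, and the call is weak support. The peak at the Hoxb4 start (chr11:96318272-96318830), which begins just inside the gene after the bases printed above, also lies within Hoxb3, whose gene model spans Hoxb4, and it was taken as the gene-end peak of Mir10a although another Hox peak lies closer. It held 11.2, 8.30 and 8.30 CPM in KIT-positive and 0.347, 0.619, 0, 1.95 and 3.29 CPM in later libraries (-2.89 ± 0.61, adjusted p = 8.19e-05). Each of these later values lay below each KIT-positive one. The strongest Hoxb peak, in Hoxb2, held 14.98, 13.5 and 13.6 CPM and then 3.13, 6.19, 2.22, 1.30 and 1.10 CPM (-2.32 ± 0.47, adjusted p = 3.82e-05). The other called Hoxb peaks, listed to account for them, were 1 more in each of Hoxb8, Hoxb7, Hoxb6 and Hoxb3. Of these, the Hoxb8 peak also passed the filter through KIT-positive libraries alone. The peak over the Hoxb1 start, at the anterior end, averaged 6.796 CPM in KIT-positive and 8.44 CPM in later cells (0.30 ± 0.48, adjusted p = 0.63) and is named after its values were seen.

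At Hoxd peaks were called in both directions. Lower were the peak over the Hoxd12 start and a peak that ends before the Hoxd10 start used above, both posterior genes. The log2 fold change was -1.98 for both (edgeR adjusted p = 0.000383 and 0.0479). Further along, 2 peaks in Hoxd8 and 1 in Hoxd3 were higher. The other peaks assigned to Hoxd3 were not called, among them 2 with log2 fold changes below -1 (-1.19 ± 0.63 and -1.38 ± 0.65, edgeR adjusted p = 0.105 and 0.0679), named after their values were seen. The first Hoxd8 peak (chr2:74704703-74705169) held 6.74, 12.5 and 7.11 CPM in KIT-positive and 17.02, 21.1, 22.2, 16.2 and 30.7 CPM in later libraries (1.30 ± 0.41, adjusted p = 0.00601). The second (chr2:74705708-74706066) held 5.99, 6.23 and 1.19 CPM and then 19.4, 9.29, 15.5, 11.03 and 13.7 CPM (1.69 ± 0.56, adjusted p = 0.00913). Neither overlapped between groups, and the call of both ended without KIT-positive library 3 (adjusted p = 0.0511 and 0.121), which has the highest share of even counts (73.9%). The Hoxd3 and Hoxd3os1 peak held 8.99, 5.19 and 11.9 CPM and then 38.2, 35.9, 16.2, 22.1 and 17.5 CPM, without overlap (1.52 ± 0.41, adjusted p = 0.00145). With only later libraries 4 and 5, the Hoxd3 and second Hoxd8 calls ended (edgeR adjusted p = 0.0991 and 0.138). The library names of these read spermatocyte, but their titles read round spermatid. At Hoxa the 1 called peak lay in Hoxa3, an anterior gene (chr6:52172209-52172837), and averaged 23.5 CPM in KIT-positive and 5.31 CPM in later cells (-2.16 ± 0.39, adjusted p = 7.02e-06).

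**Figure D3:**
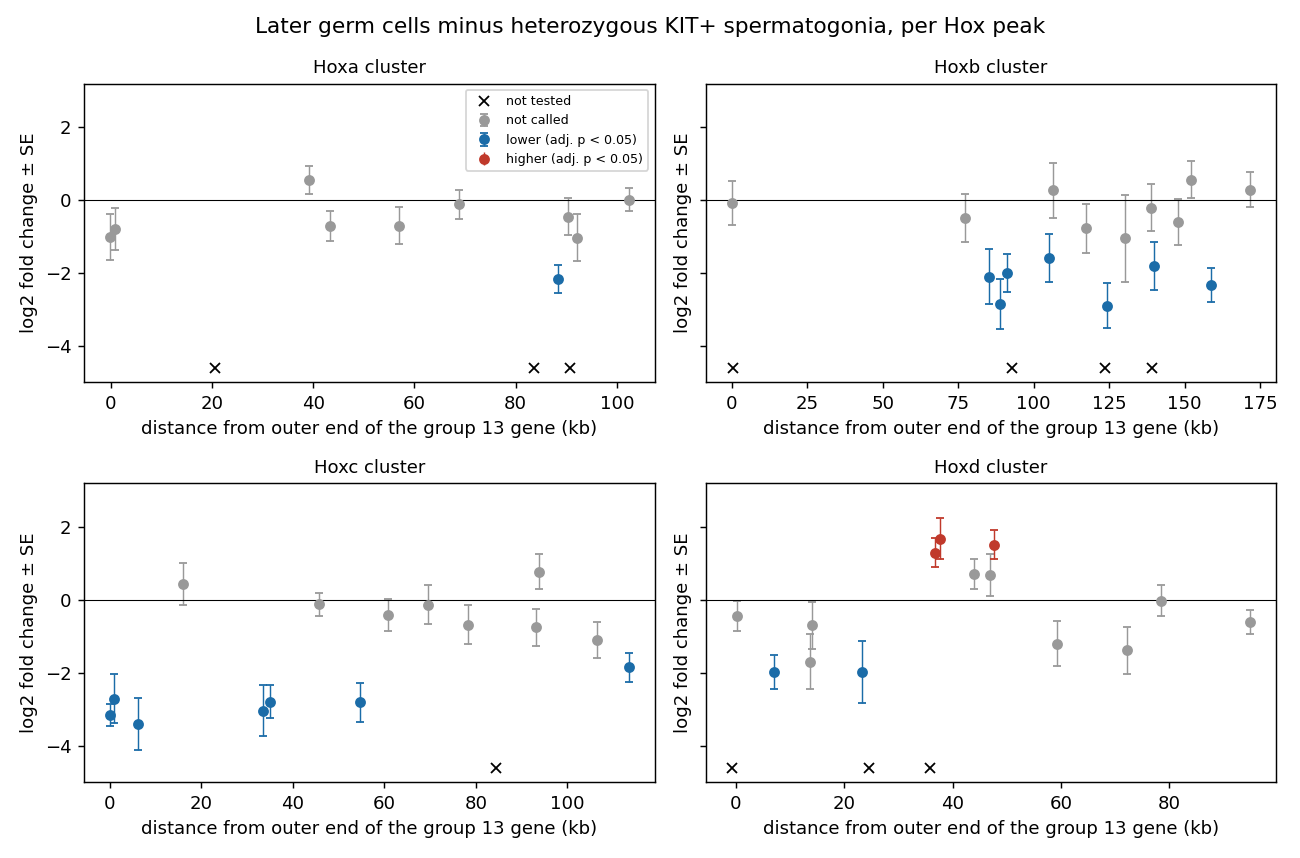
Log2 fold change ± SE of later germ cells minus heterozygous KIT-positive spermatogonia at each tested Hox peak, by distance in kb from the outer end of the number 13 gene, so that posterior genes lie at the left of every panel; crosses at the bottom are the 11 peaks not tested. Blue points are lower and red points higher at an adjusted p under 0.05: Hoxc has 5 lower peaks at Hoxc13 and Hoxc11, Hoxb 7 between Hoxb8 and Hoxb2, and Hoxd 2 lower and then 3 higher.

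**Figure D4:**
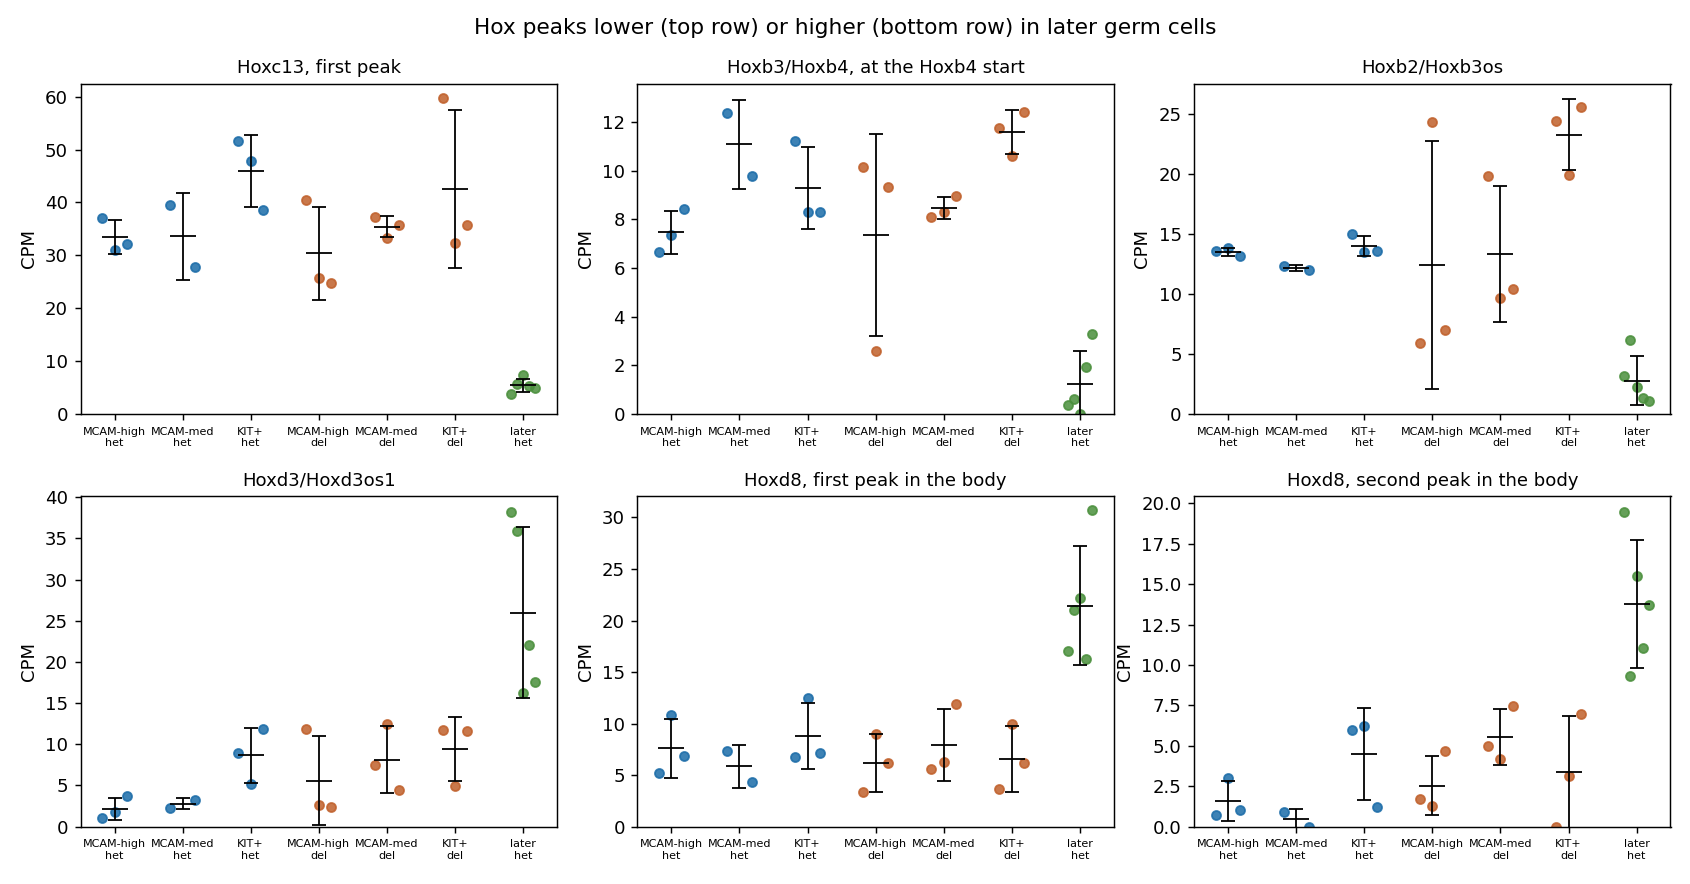
CPM of 6 named peaks in all 22 libraries, 1 point each, with mean and SD per group (het, heterozygous; del, TERT-deleted). In the top row later germ cells (green) have the lowest group mean, and at the Hoxc13 peak all of them lie lowest (3.82 to 7.39 CPM). A deleted MCAM-high library lies below the highest later one at the Hoxb4 start (2.57 against 3.29 CPM) and at Hoxb2 (5.91 against 6.19 CPM). In the bottom row later germ cells lie highest, at 16.2 to 38.2 CPM for the Hoxd3 peak.

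Against heterozygous MCAM-high cells the later group shares its 5 libraries with the comparison above, so the calls are given side by side and not as separate support. Of 55 tested Hox peaks 15 were lower and 6 higher, and of all peaks 58.4% were called (24.9% lower and 33.5% higher). The Hox median was -0.75 on the log2 scale and that of all peaks 0.01, and without TMM -0.97 and -0.20. By cluster 1 was higher and 1 lower at Hoxa, 1 and 4 at Hoxb, 1 and 8 at Hoxc, and 3 and 2 at Hoxd. With only later libraries 4 and 5, named as spermatocytes but titled round spermatids, 7 were lower. The Hoxc13 outer peak fell by 2.68 ± 0.30 (edgeR adjusted p = 5.57e-11), the Hoxb4 start by 2.55 ± 0.59 (adjusted p = 0.000211), Hoxc11 by 2.45 ± 0.70 (adjusted p = 0.00233) and Hoxb2 by 2.25 ± 0.44 (adjusted p = 1.93e-05). Another Hoxc13 peak (chr15:102921913-102922188) and the peak beside Hoxc9 fell by 2.03 ± 0.67 and 1.95 ± 0.54 (adjusted p = 0.00725 and 0.00154). With those spermatocyte-named libraries alone the calls of the Hoxb4 start and of the second of these Hoxc13 peaks ended (adjusted p = 0.0666 and 0.112).

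The Hoxd3 and Hoxd3os1 peak had the largest rise of any Hox peak against MCAM-high cells, from 1.05, 1.73 and 3.68 CPM to 16.2 CPM or more in each later library (log2 fold change 3.65 ± 0.47, edgeR adjusted p = 2.21e-09). Its group means were 2.15 CPM for MCAM-high, 2.78 CPM for MCAM-medium, 8.67 CPM for KIT-positive and 26.0 CPM for later cells. These means are of heterozygous libraries, of which MCAM-high and MCAM-medium ones overlapped, and each later pair of neighbours in that order did not. Deleted libraries held 11.8, 2.57 and 2.33 CPM (MCAM-high) and 7.45, 12.5 and 4.47 CPM (MCAM-medium) at this peak. With 11.8, 4.98 and 11.6 CPM in deleted KIT-positive libraries, the deleted populations overlapped. The second Hoxd8 peak rose by 3.09 ± 0.58 (adjusted p = 9.38e-06), from 0.699, 3.02 and 1.05 CPM. The first Hoxd8 peak rose by 1.49 ± 0.38 (adjusted p = 0.000679). Higher too were a Hoxb3 peak within Hoxb3os (chr11:96346113-96346549, 1.92 ± 0.52, adjusted p = 0.00125), the Hoxc5 peak with Mir615 (1.79 ± 0.48, adjusted p = 0.00126) and a peak beside Hoxa9, a posterior gene (chr6:52221475-52222073, 1.29 ± 0.39, adjusted p = 0.0035). At the Hoxb3 peak later libraries held 9.29 to 11.5 CPM and MCAM-high libraries 4.19, 1.73 and 1.58 CPM, without overlap. At the Hoxc5 peak the lowest later library, at 4.43 CPM, lay below the highest MCAM-high library at 6.04 CPM. The Hoxa9 call ended with only the spermatocyte-named later libraries (adjusted p = 0.0726).

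Homeobox genes outside the clusters, mostly developmental regulators of other families, also had more lower than higher peaks. Of 203 tested peaks at such genes, 99 (48.8%) were lower and 7 (3.45%) higher in later than in KIT-positive cells, and 82 (40.4%) and 16 (7.88%) against MCAM-high cells. Within 100 kb of the clusters, but not at a Hox gene, 11 of 42 tested peaks were lower and 7 higher against KIT-positive cells, and 5 lower and 10 higher against MCAM-high cells. Over all tested peaks 22.8% were lower and 29.2% higher against KIT-positive cells, and 24.9% and 33.5% against MCAM-high cells. Whether Hox peaks differ from the homeobox set or the 100 kb set was not tested. The list of homeobox genes was drawn up with earlier results of these data known.

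**Figure D5:**
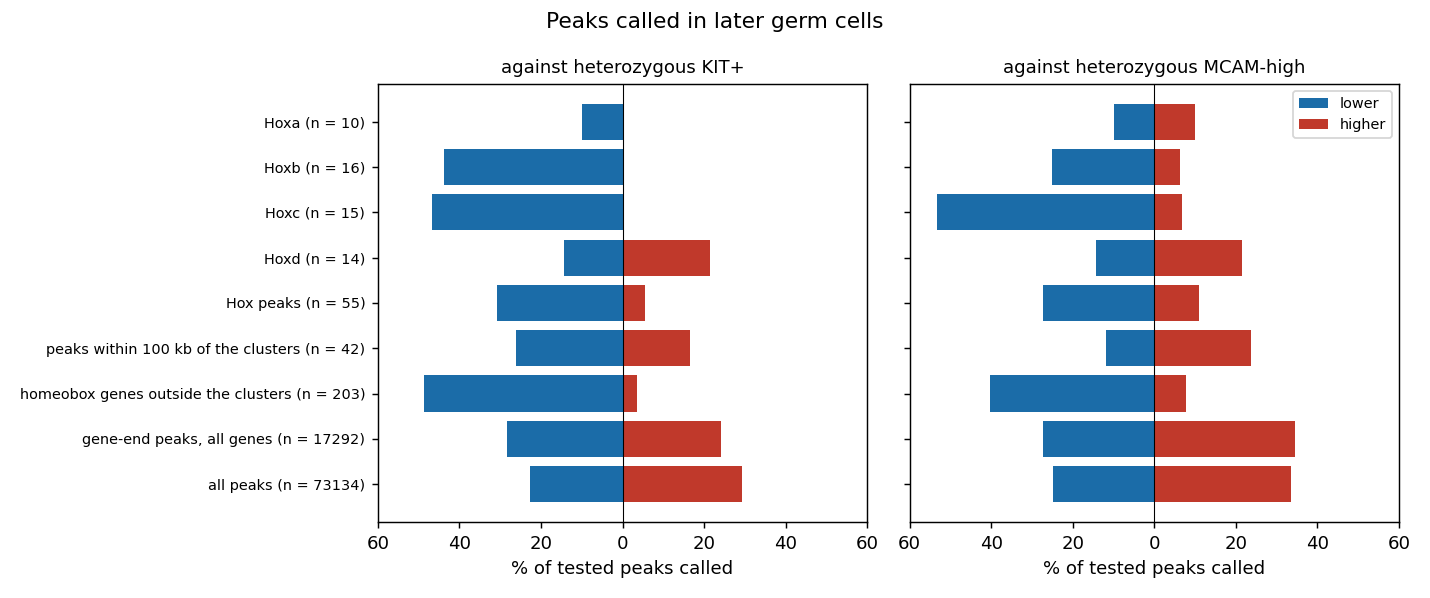
Share of tested peaks called lower (blue, to the left) or higher (red, to the right) in later germ cells at an adjusted p under 0.05, for each Hox cluster and for other sets, with the number tested. Against KIT-positive cells, 30.9% of Hox peaks were lower and 5.45% higher, where all peaks had 22.8% and 29.2%.

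Levels at markers of testicular somatic cells were also lower in the later group, and their part in the Hox results was not tested. Gene-end peaks existed for 8 of 12 Sertoli, 2 of 8 Leydig, 6 of 10 peritubular and endothelial and 4 of 10 immune markers. Of all gene-end peaks 28.4% were lower and 24.0% higher in later than in KIT-positive cells. Summed over the 8 Sertoli markers, KIT-positive heterozygous libraries held 144 to 167 CPM and later ones 70.8 to 80.5 CPM, and 4 of the 8 were lower and none higher. The 2 Leydig markers summed to 31.1 to 50.9 CPM and 13.01 to 19.8 CPM, with both lower. The 6 peritubular and endothelial markers summed to 73.7 to 126 CPM and 48.9 to 63.6 CPM, with 4 lower and 1 higher. The 4 immune markers summed to 55.7 to 67.5 CPM and 37.7 to 52.6 CPM, with 1 lower and none higher. None of these 20 markers was at 0 in either group. Between MCAM-high and KIT-positive heterozygous cells the only call among them was 1 higher peritubular or endothelial marker. In that step 15.1% of all gene-end peaks were higher and 4.46% lower.

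Noncoding genes of the clusters were read through the 1 gene-end peak each that 9 of 17 had. Against KIT-positive cells 1 was higher in later germ cells, Hoxd3os1 through the Hoxd3 peak, and 2 were lower, Hoxb3os through the Hoxb2 peak and Mir10a through the Hoxb4 start. Among all gene-end peaks 24.0% were higher and 28.4% lower in this comparison. The peak nearest to Hotair, a long noncoding RNA of the Hoxc cluster, averaged 14.1 ± 6.74 CPM in KIT-positive and 17.6 ± 3.88 CPM in later libraries (0.26 ± 0.36 on the log2 scale, edgeR adjusted p = 0.564). The miRNA genes other than Mir615 lay 606 to 8056 bp from the nearest Hox peak.

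Genes whose products act with HOX proteins or on the clusters were counted beside the background of all gene-end peaks. Of 8 TALE homeodomain cofactors with a tested gene-end peak, which bind DNA together with HOX proteins, 4 were lower and none higher in later than in KIT-positive cells, where 28.4% of all gene-end peaks were lower. Among the lower ones Meis1, Meis2 and Pknox2 fell by 0.92, 1.78 and 1.67 on the log2 scale (edgeR). The strongest cofactor peaks did not pass: Pbx3 held 78.5 ± 18.3 and 88.5 ± 13.7 CPM (0.14 ± 0.22), Pknox1 88.2 ± 31.5 and 85.7 ± 8.81 CPM, and Pbx4 58.3 ± 9.19 and 69.8 ± 10.7 CPM.

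Of 21 upstream regulators tested, 7 (33.3%) were lower and 3 (14.3%) higher in later than in KIT-positive cells, where all gene-end peaks had 28.4% and 24.0%. Higher were Ezh2 and Eed, subunits of the Polycomb repressive complex that methylates histone H3 (0.81 ± 0.21 and 0.97 ± 0.21 on the log2 scale), and Kdm6b, which removes that mark (1.67 ± 0.46; edgeR adjusted p = 0.000922, 0.000139 and 0.00185). Lower were Kmt2a and Kmt2b, Trithorax-type methyltransferases (-2.49 and -1.64), Cdx2 and Cdx4, homeobox activators of Hox genes (-3.76 and -2.13), the Polycomb members Cbx2 and Pcgf2 (-2.19 and -1.54) and the demethylase Kdm6a (-1.78). From MCAM-high to KIT-positive heterozygous cells 7 of the 21 were higher and none lower, among them Pcgf2 (1.42 ± 0.24, adjusted p = 3.76e-05) and Suz12, a further subunit of the complex of Ezh2 (1.28 ± 0.25, adjusted p = 0.000332). At all gene ends 15.1% of peaks were higher and 4.46% lower in that step. No cofactor or regulator peak was called for the mean effect of deletion.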

How the data were processed

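The authors deposited 1 table of counts of ATAC-seq reads or cuts in 96049 peaks for 22 libraries, and its values are whole numbers with no normalization. The submitters' processing notes list Bowtie2, Picard, SAMtools and FastQC as tools and give hg19, mm10 and GRCm38 as builds, with no role for any. The peak caller, the counting rule, any shift for the Tn5 offset and whether peak starts count from 0 or 1 are not given in the sources used here. Coordinates are printed as deposited, and genes were placed on them from the RefSeq table of GRCm38.p6, which gives gene spans but no exons or UTRs.

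Each of the 66 Hox peaks was assigned to the gene whose body it overlapped most, and ties went to the gene with the lower start. Counts were tested with edgeR 4.0.16 (R 4.3.3) by quasi-likelihood F tests with TMM scaling, filterByExpr by group and Benjamini-Hochberg adjustment over all tested peaks at 0.05. One fit held the 17 spermatogonial libraries and another the 13 heterozygous libraries. SE was taken as |log2 fold change| over the root of F. The procedure was tested on simulated data; the dispersion and acceptance rule of that simulation were revised once after a first version missed its recovery target, and few 2-fold changes were recovered, so a peak that was not called is not shown to be unchanged. Alternatives were DESeq2 1.42.0, RLE, total-count and loess scaling (limma 3.58.1), no filter, other sets of libraries, a replicate block, other flanks and leaving out each library.

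The labels do not tie replicates to separate animals. The p-values therefore reflect only how far these libraries spread, and that spread may be technical. Libraries of a group differed beyond sampling noise (chi-square per degree of freedom from 1.78 to 3.78). Totals of 922085 to 3358377 counts limit the precision of weak peaks.

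Peaks named were the strongest of each cluster and every Hox peak past the threshold or, above 12, the 6 largest changes in each direction, and where none passed the smallest p. For other lists these were up to 4 members with the strongest gene-end peak and any that passed if 4 or fewer did. Hoxc10, Hoxb1, Hoxa3, Hoxd10, Hoxd12 and further called peaks and regulators were added after their values were seen. Results of some genes taken by this rule are not reported here. The members and lists were chosen with earlier results of these data known.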

Additional observations from a re-analysis of the deposited data

How the results depend on the processing

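For single Hox peaks taken by the naming rule, recalculations of the 24 called results kept the call in 369 and lost it in 23, the 97 recalculations of the 6 uncalled results gave no call, and the sign was kept in 489. Against KIT-positive cells 6 of 9 named peaks, and against MCAM-high cells 9 of 12, were called in later germ cells under every alternative that tested them. A run whose filter dropped a peak was not counted for that peak. This left fewer runs for the Hoxb8 peak and a Hoxc13 peak against KIT-positive cells. Against MCAM-high cells it left fewer for the Hoxc11 and Hoxc9 peaks and a Hoxc13 peak. Lower Hox peaks numbered 11 to 19 and 7 to 22 in these 2 comparisons, and higher ones 1 to 4 and 5 to 8. Fitting only the groups compared gave 11 lower of 36 tested peaks against KIT-positive cells (30.6%, and 30.9% in the full fit). Later libraries 4 and 5 alone, named as spermatocytes but titled round spermatids, gave 1 higher against KIT-positive and 7 lower against MCAM-high cells. That choice of libraries was made after seeing the data. The cause was not tested.

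From MCAM-high to KIT-positive heterozygous cells, 2 Hox peaks were higher with loess scaling, with DESeq2 and with 10 kb flanks. From MCAM-medium cells, 2 were higher with DESeq2 and with 10 kb flanks, and 0 with only the groups compared. The Hoxb8 call also ended with loess scaling (adjusted p = 0.0691). In deleted cells total-count scaling gave 0 higher and 1 lower, and fitting only the groups compared gave 1 lower. The cause was not tested. Leaving out 1 library gave 0 to 1 higher peaks in each of these 3 steps, and in later germ cells against KIT-positive cells 1 to 3 higher and 15 to 17 lower, against MCAM-high cells 6 to 7 and 13 to 16. No alternative run gave a Hox call for deletion, for its interaction with the step or between the undifferentiated populations.

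Same-numbered libraries did not deviate together (correlations from -0.41 to 0.09), so the numbers were not taken as pairs. With the replicate block, 0 Hox peaks were called from MCAM-medium to KIT-positive cells (Hoxb8 adjusted p = 0.0781) and no other Hox count moved by over 1.5 times. No block could be fitted for the later group, and the mean over 3 populations has no fit on fewer groups.

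Mean CPM per peak moved beyond the SD as follows. With total-count scaling Hoxb was 5.56 in deleted MCAM-high and 2.80 in later cells, Hoxc 11.5, 10.99 and 10.4 in deleted MCAM-high, MCAM-medium and KIT-positive cells, and Hoxd 7.31 and 6.21 in heterozygous and 8.04 and 8.76 in deleted MCAM-high and MCAM-medium cells. With 10 kb flanks Hoxa was 10.6 in deleted KIT-positive, Hoxb 5.34 in deleted MCAM-high, and Hoxc 8.62 and 11.3 in heterozygous MCAM-high and KIT-positive and 9.43, 8.89 and 10.4 in deleted MCAM-high, MCAM-medium and KIT-positive cells. With gene bodies only Hoxd was 7.54, 6.24 and 8.80 in heterozygous and 8.03 and 9.13 in deleted MCAM-high and MCAM-medium cells. From MCAM-medium to KIT-positive cells the higher share of all called peaks fell from 61.2% to 43.8% without TMM (49.1% with loess), and in deleted cells from MCAM-high it fell from 68.4% to 46.3%.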

Other observations

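Genes that neighbour the Hox clusters did not share one direction in later germ cells. Of 11 with a tested gene-end peak, 4 (36.4%) were lower and 1 (9.09%) higher than in heterozygous KIT-positive cells (edgeR quasi-likelihood test, adjusted p under 0.05), against 28.4% and 24.0% of all gene-end peaks. Nfe2l2, a regulator of the oxidative stress response beside Hoxd, fell by 1.71 ± 0.20 on the log2 scale (adjusted p = 1.37e-10). Ttll6, which adds glutamate chains to tubulin and lies beside Hoxb, rose by 2.35 ± 0.34 (adjusted p = 8.26e-08), from 8.64 ± 5.68 CPM (SD, n = 3) to 47.5 ± 12.7 CPM (n = 5). The other called genes were Hibadh, Calcoco1 and Atp5g2, all lower.

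Of 63 homeobox genes outside the clusters with a tested gene-end peak, 33 were lower and 2 higher in later than in KIT-positive heterozygous cells, with a median log2 fold change of -1.03. Lhx2, a LIM homeobox gene, was among the higher ones (2.20 ± 0.35, adjusted p = 4.1e-07). Among the strongest, Dlx1, Nkx6-1 and Msx1 fell by 2.16, 1.06 and 0.76, and Hhex was at -0.27 ± 0.25 (adjusted p = 0.385). In the same comparison 6 of 7 differentiating and 6 of 14 undifferentiated spermatogonial markers were lower and none higher, and of 12 spermatocyte markers 8 were higher and 2 lower. For all these lists the background was 28.4% lower and 24.0% higher among all gene-end peaks.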
